A study of Mus musculus with 16 samples.

Results

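The mRNAs of the translation initiation factors (Eif genes) and elongation factors (Eef genes) were followed in perfused mouse liver. Members were taken by gene symbol: a probe set belonged if the platform annotation gave it a single symbol that begins with Eif1 to Eif6, Eef1 or Eef2, leaving out the Eif2ak kinases and the sex-linked Eif2s3 pair, and the brightest probe set over the 16 arrays stood for its gene. This gave 52 genes, 11 Eef and 41 Eif, out of 18194 genes with a probe set of their own. Of these, 49 passed the filter on low signals (10 Eef and 39 Eif). The other 3, Eef2kmt, Eif4a3 and Eif5a2, had mean signals of 5.71, 7.55 and 8.13 and were not tested. Eif2s1, the eIF2 subunit that PERK phosphorylates, was not analysed here. Their signals per array ran from 3.58 to 10.1 for Eef2kmt, from 1.28 to 27.7 for Eif4a3 and from 1.46 to 19.4 for Eif5a2.

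Affymetrix arrays of liver from mice aged 3 to 6 months, wild-type for Perk (symbol Eif2ak3) or littermates with Alb/Cre Perk-/-, formed 8 groups of 2. Albumin-driven Cre acts in hepatocytes, so the other liver cells keep the gene. All livers were perfused once through with a buffer at 0.1 mM CaCl2, either with or without tBuHQ. This is a di-tert-butylhydroquinone for which the labels name both the 2,4 and the 2,5 isomer and which blocks calcium uptake into the endoplasmic reticulum. For each genotype and treatment, RNA came from unfractionated liver supernatant or from the polysome fractions of a 20 to 47% sucrose gradient, and RNA from 2 livers per condition was pooled, per the labels' protocols. By their titles, arrays of 1 group are biological replicates, but the labels do not say whether unfractionated and polysome RNA came from the same livers.

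Initiation begins when eIF2 brings the initiator tRNA to the small ribosomal subunit, with eIF3 as the scaffold on that subunit and eIF4 factors at the mRNA cap. PERK phosphorylates eIF2, which then blocks its own exchange factor eIF2B and slows initiation. In elongation, eEF1A brings each aminoacyl-tRNA to the ribosome, the eEF1B subunits recharge eEF1A with GTP, and eEF2 moves the ribosome along. The mRNAs of eEF1A, eEF1B, eEF2, several eIF3 subunits and ribosomal proteins are known for a run of C and T directly at the cap, the terminal oligopyrimidine or TOP motif, through which mTOR signalling sets how many ribosomes they carry.

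Stretches near the annotated starts of 7 members are shown because the TOP motif lies at the 5' end. Each was placed around the longest run, so some do not hold the annotated start itself. Each line holds 30 bases of the transcript strand from the RefSeq promoter table (GRCm38.p6), and the capitals mark the longest unbroken run of C and T letters that reaches into the window from 10 bases before to 50 bases after the annotated start. The first 6 were lower in polysome RNA, and Eif4e, with separate RefSeq starts, was higher.
Eef1a1: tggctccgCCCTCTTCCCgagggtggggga
Eef1b2: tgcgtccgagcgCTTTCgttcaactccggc
Eef2: gtcagcggTCTCTTCCgccgcagccgccgc
Eif3f: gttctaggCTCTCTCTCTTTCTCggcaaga
Eif3m: cggcaccgCTCTCTTTTCCggtcggcgtgt
Eif3d: ttacggcaccggCCCCTgcgcgcgcatctt
Eif4e, first start: ggagctggTCCTTaaggaaggcacgcgctt
Eif4e, second start: tcctctcgCCCCCCCTTCaggagcggttgt

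These stretches lie at chr9:78481708-78481737 (minus strand) for Eef1a1, chr1:63176851-63176880 (plus) for Eef1b2 and chr10:81176637-81176666 (plus) for Eef2. Those of the eIF3 subunits lie at chr7:108934403-108934432 (plus) for Eif3f, chr2:105017026-105017055 (minus) for Eif3m and chr15:77970775-77970804 (minus) for Eif3d. The Eif4e stretches lie at chr3:138526201-138526230 and chr3:138527248-138527277, both on the plus strand. The longest run was 15 bases in Eif3f, 11 in Eif3m, 10 in Eef1a1, 8 in Eef2 and 5 in Eef1b2 and Eif3d. Counted from the annotated start, these runs began at -4, -20, -5, 14, 32 and 32, where negative values lie before the start. The Eif4e runs began at 18 from the first start and at -12 from the second. The runs of Eif3m and of the second Eif4e start ended before the annotated start. Of 41 members with an entry in the table, 15 had a run of at least 8 bases, while 27.2% of all 27025 genes in it did. Such a run was found in 8 of the 16 members with an entry that were lower in polysome RNA and in 7 of the other 22 that were tested. The search covered the transcript strand only, and an annotated start can differ from the start used in liver, so the count describes these letters and does not place a TOP motif.

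All arrays had been scaled to a trimmed mean signal of 150, and replicate correlations across probe sets were 0.943 to 0.975. The second wild-type tBuHQ polysome array stood apart by its 3' to 5' signal ratio of Gapdh, 5.60 against 0.735 to 0.859 on the other arrays, and of beta-actin, 1.98 against 1.21 to 1.37. Within unfractionated RNA, the pair of wild-type arrays without tBuHQ and knockout tBuHQ array 1 correlated with each other at 0.973 to 0.975 and with the other 5 at 0.948 to 0.964. The summed signal of 5 pancreatic markers was 1752 to 2499 on array 1 of tBuHQ wild-type and of untreated knockout liver in each fraction and 58.6 to 222 on the other arrays. Hepatocyte markers summed to 67306 or more on every array. Eif2ak3 was lower in the knockout, at 26.3 to 49.2 against 46.1 to 216 (log2 difference -1.31 ± 0.17, limma adjusted p = 0.0106), and whether its probe set covers the deleted exons is not known here.

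Translation factor mRNAs differed between polysome and unfractionated RNA. Averaged over the 4 combinations of genotype and treatment, 21 of the 49 tested members were lower and 6 higher in polysome RNA (limma, Benjamini-Hochberg adjusted p under 0.05 over all 12154 genes tested). The members called in either direction made up 55.1%, against 26.7% of all genes tested. The lower ones made up 42.9% of the members against 11.9% of all genes, and the higher ones 12.2% against 14.8%. The Eef and the Eif genes both had a median log2 difference of -0.25, against -0.02 over all genes. With no filter on dim probe sets the Eef median was -0.03 and the Eif median -0.24. Within both classes the genes differed by role: the tRNA-delivering and translocating elongation factors and the eIF3 subunits were mostly lower, while Eef genes with other roles and the cap-binding factors were not, as the plot of differences by role shows. Since 12 µg of RNA entered each labelling and each array was scaled to one mean, a lower signal means a smaller share of the polysome RNA and not a count of molecules. Differences are on the scale of log2(signal + 16), which understates those of dim genes, and each is given with the standard error of the fit over 8 against 8 arrays.

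**Figure D1:**
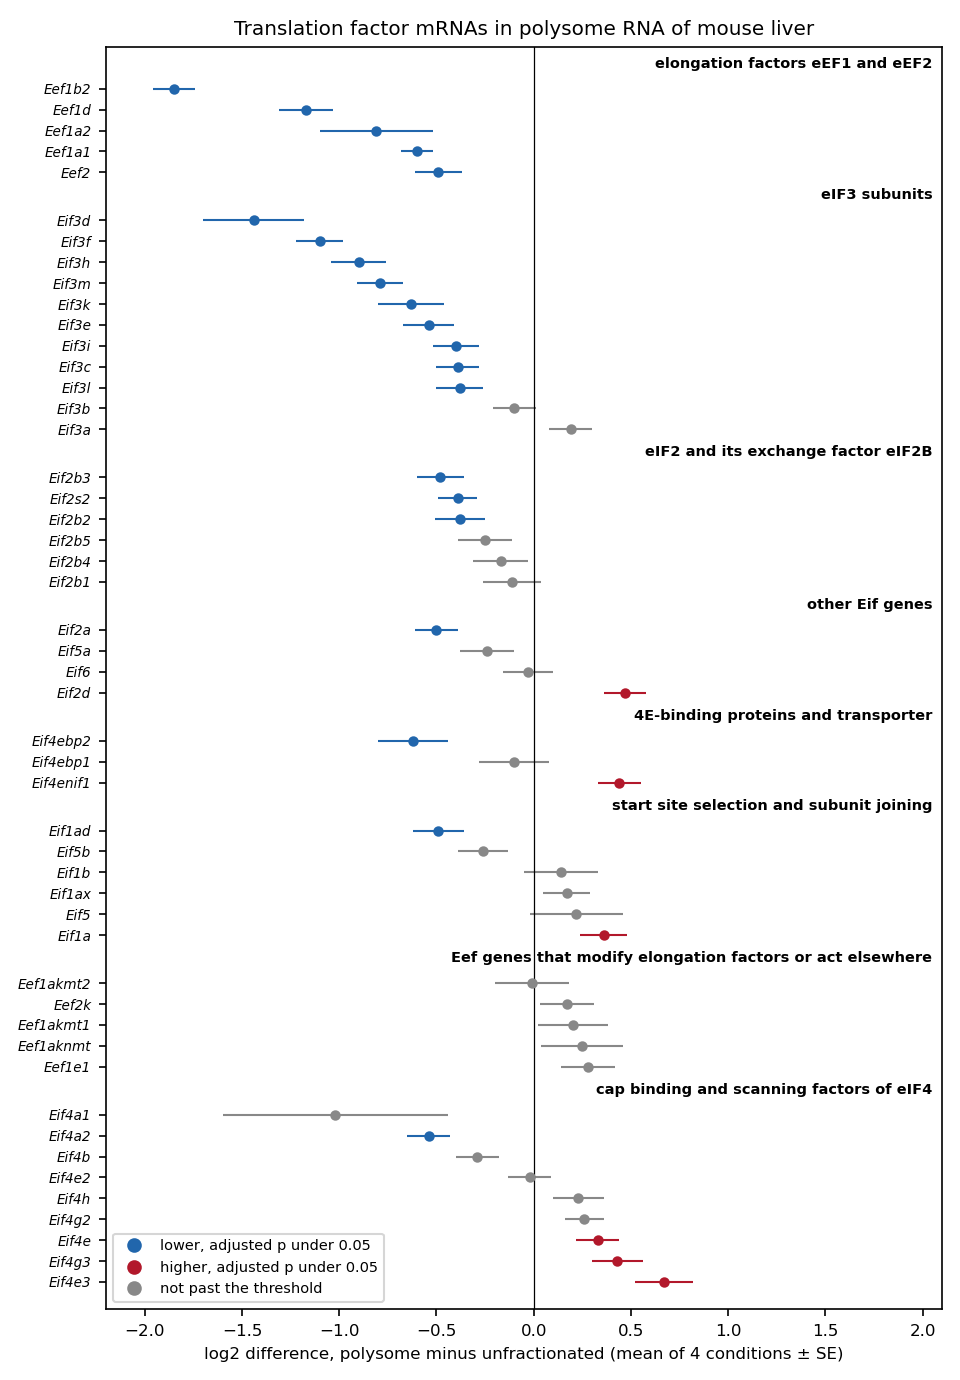
Log2 difference in signal between polysome and unfractionated RNA (x axis, mean of 4 conditions, bars ± SE, 8 against 8 arrays) for each of the 49 tested translation factor genes, grouped by role. All 5 eEF1 and eEF2 genes and 9 of 11 eIF3 subunits lie to the left in blue (lower), and the 6 genes in red (higher) lie in 4 of the initiation factor groups.

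All 5 genes of eEF1 and eEF2 were lower in polysome RNA, against 11.9% of all genes, though the calls of Eef2 and Eef1a2 depended on the setting. Eef1b2, an exchange subunit of eEF1B, had the largest difference of all members: its signal was 3356 to 4972 (median 4496) in unfractionated and 980 to 1438 (median 1160) in polysome RNA. The lowest unfractionated array was above the highest polysome array, and the log2 difference was -1.85 ± 0.11, or 3.60-fold lower (adjusted p = 1.03e-07). Eef1d, the other exchange subunit measured, ran from 1121 to 1786 (median 1451) in unfractionated and from 456 to 908 (median 642) in polysome RNA. Its arrays did not overlap between the fractions either, with a log2 difference of -1.17 ± 0.14 (adjusted p = 5.09e-05). A second Eef1d probe set gave -1.01.

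Eef1a1, which delivers aminoacyl-tRNA, read 13781 to 19313 (median 16208) in unfractionated and 9932 to 12317 (median 10749) in polysome RNA. There too every polysome array was below every unfractionated one, and the difference was -0.60 ± 0.08, or 1.51-fold lower (adjusted p = 8.32e-05). Eef2, the translocation factor, was lower by a smaller margin, -0.49 ± 0.12 (adjusted p = 0.00698). Its signals of 2548 to 3684 (median 3042) and 1527 to 3296 (median 2120) overlapped. The Eef2 call was lost with quantile normalization over all arrays and with the mean of all probe sets of a gene. Eef1a2, the eEF1A form known from muscle and nerve, was dim, at 43.2 to 117 (median 86.2) against 4.69 to 102 (median 41.5). Its difference of -0.81 ± 0.29 passed narrowly (adjusted p = 0.0489), and leaving out any of 13 of the 16 arrays ended that call (-1.12 to -0.50, adjusted p up to 0.125).

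None of the 5 tested Eef genes with other roles passed the test, against 26.7% of all genes. They were Eef1e1, a component of the multi-synthetase complex (0.28 ± 0.14, adjusted p = 0.178), Eef2k, the kinase that inhibits eEF2 (0.17 ± 0.14, adjusted p = 0.407), and the methyltransferases of eEF1A. Of the methyltransferase genes, Eef1akmt1 stood at 0.20 ± 0.18, Eef1akmt2 at -0.01 ± 0.19 and Eef1aknmt at 0.25 ± 0.21. Eef1e1 read 380 to 666 (median 503) in unfractionated and 399 to 790 (median 630) in polysome RNA, so its arrays overlapped almost throughout. For Eef2k the signals were 77.5 to 120 (median 90.5) and 75.5 to 158 (median 102).

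**Figure D2:**
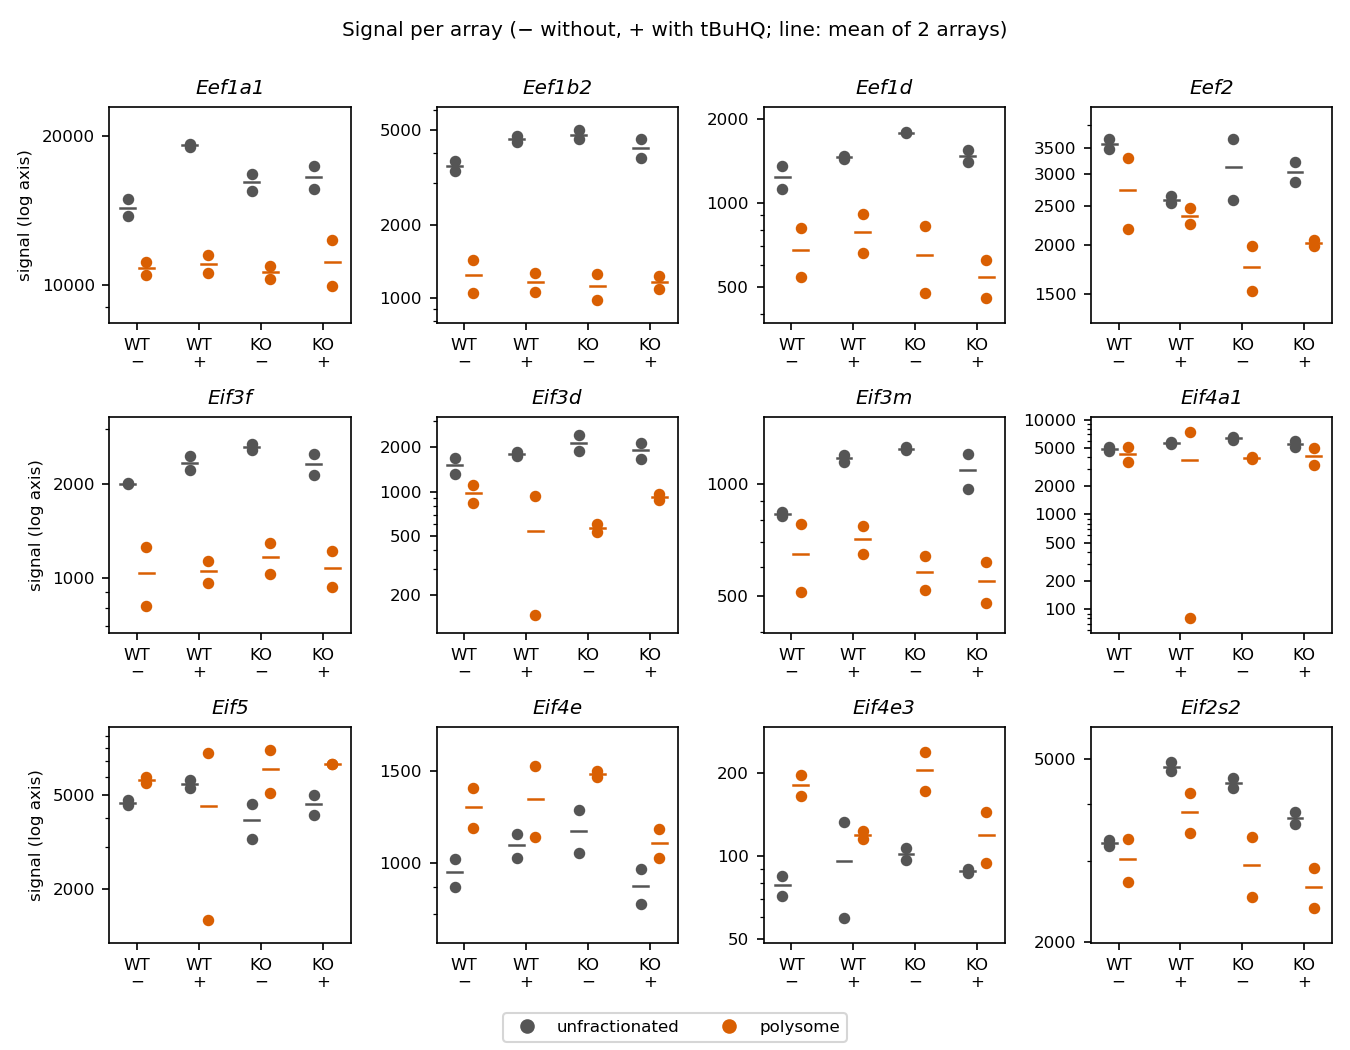
Signal (y axis, log scale) of 12 translation factor genes on each array, by genotype (WT, wild-type; KO, knockout) and tBuHQ (minus, without; plus, with); gray points are unfractionated and orange points polysome RNA, and short lines are means of 2 arrays. The fractions do not overlap for Eef1a1, Eef1b2, Eef1d, Eif3f, Eif3d and Eif3m, and a single wild-type tBuHQ polysome array lies far below its partner for Eif4a1, Eif3d and Eif5.

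Of the 11 subunits of eIF3, 9 were lower in polysome RNA and none higher, against 11.9% and 14.8% of all genes. Eif3f had signals of 1990 to 2685 (median 2342) in unfractionated and 810 to 1294 (median 1080) in polysome RNA, a difference of -1.10 ± 0.12 (adjusted p = 2.03e-05). Eif3h, which like Eif3f encodes a subunit with an MPN domain, ran from 2361 to 3617 (median 2965) and from 1186 to 2029 (median 1631), a difference of -0.90 ± 0.14 (adjusted p = 0.000256). Eif3m read 824 to 1258 (median 1175) and 481 to 785 (median 630), a difference of -0.79 ± 0.12 (adjusted p = 0.000307). For these 3 genes the 8 polysome arrays lay below the 8 unfractionated arrays without overlap.

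Eif3d, the subunit known in human cells to bind the cap of some mRNAs, had signals of 1307 to 2421 (median 1807) in unfractionated and 146 to 1108 (median 859) in polysome RNA. The difference was -1.44 ± 0.26 (adjusted p = 0.000948). The value of 146 came from the polysome array with high 3' to 5' ratios, and without that array the difference was -1.12 ± 0.12 (adjusted p = 1.00e-05). Eif3k (-0.63 ± 0.17), Eif3e (-0.54 ± 0.13), Eif3i (-0.40 ± 0.12), Eif3c (-0.39 ± 0.11) and Eif3l (-0.38 ± 0.12) were lower with overlapping arrays, at adjusted p-values of 0.00701 to 0.0243. The calls were lost without any of 6 arrays for Eif3i, 5 for Eif3l and 2 for Eif3c, with adjusted p-values up to 0.0626, 0.0673 and 0.0562.

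The remaining subunits, Eif3a and Eif3b, did not pass the test. Eif3a read 1860 to 2576 (median 2077) in unfractionated and 1532 to 3667 (median 2430) in polysome RNA (0.19 ± 0.11, adjusted p = 0.228). Eif3b read 495 to 637 (median 589) and 441 to 649 (median 578), a difference of -0.10 ± 0.11 (adjusted p = 0.557). Signals of both genes overlapped between the fractions.

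Over all members, 7 had no overlap between the fractions with polysome lower and none with polysome higher: Eef1a1, Eef1b2, Eef1d, Eif3d, Eif3f, Eif3h and Eif3m. Among all genes tested, 3.66% had no overlap in either direction, 1.44% had no overlap with polysome lower and 2.22% with polysome higher. Each of the 7 calls was kept under every setting tried, as was that of Eif2b3. The call of Eif3k ended in a single setting, without the 4 arrays with pancreatic markers (adjusted p = 0.0738).

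The eIF2 and eIF2B genes, whose products PERK signalling acts on, were lower in polysome RNA in 3 of 6 cases, against 11.9% of all genes. Eif2s2, the beta subunit of eIF2, ran from 3241 to 4929 (median 4090) in unfractionated and from 2373 to 4229 (median 3124) in polysome RNA (-0.39 ± 0.10, adjusted p = 0.0115). Other Eif2s2 probe sets, with mean signals of 3104, 2159 and 1070, had smaller differences of -0.13, -0.26 and -0.17. A dimmer one, with a mean signal of 375, went the other way at 0.45. Eif2b3, a subunit of eIF2B, read 302 to 489 (median 406) and 208 to 457 (median 257), a difference of -0.48 ± 0.12 (adjusted p = 0.00760). Eif2b2 stood at -0.38 ± 0.13 (adjusted p = 0.0376), a call that ended without any of 12 of the 16 arrays (adjusted p up to 0.0919). Eif2b1 (-0.11 ± 0.15), Eif2b4 (-0.17 ± 0.14) and Eif2b5 (-0.25 ± 0.14, adjusted p = 0.211) did not pass the test.

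Among the 9 cap-binding and scanning factors of eIF4, 3 were higher in polysome RNA and 1 was lower, and their median difference was 0.23. These are 33.3% and 11.1%, against 14.8% and 11.9% of all genes. Eif4e, the cap-binding protein, ran from 833 to 1261 (median 1021) in unfractionated and from 1024 to 1535 (median 1278) in polysome RNA. The difference of 0.33 ± 0.11 passed (adjusted p = 0.0427) but not without any of 12 of the 16 arrays (0.27 to 0.38, adjusted p up to 0.108). On dimmer probe sets, with mean signals of 321, 52.1 and 23.0, Eif4e stood at 0.67, 0.61 and 0.33. Its relative Eif4e3 read 59.6 to 133 (median 88.3) and 94.1 to 239 (median 156), a difference of 0.67 ± 0.15 (adjusted p = 0.00452). A second Eif4e3 probe set stood at 0.10. Eif4g3, a scaffold that joins cap and ribosome, read 181 to 321 (median 200) and 193 to 593 (median 274). Its difference was 0.43 ± 0.13 (adjusted p = 0.0231), and the call ended without any of 5 arrays.

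Eif4a2, an RNA helicase, was the lower one of the group, at 3750 to 6820 (median 5113) against 2507 to 3900 (median 3463), or -0.54 ± 0.11 (adjusted p = 0.00214). Its close relative Eif4a1 had a single polysome array at 80.9, the one with high 3' to 5' ratios, while the other 7 ran from 3307 to 7375. Its difference of -1.02 ± 0.58 did not pass (adjusted p = 0.219), and without that array it was -0.24 ± 0.11 (adjusted p = 0.140). The helicase cofactors Eif4b (-0.29 ± 0.11, adjusted p = 0.0613) and Eif4h (0.23 ± 0.13) did not pass. The other Eif4b probe sets, with mean signals of 800 and 439, had larger log2 differences of -0.45 and -0.54. Eif4g2, a scaffold without the eIF4E site, stood at 0.26 ± 0.10 (adjusted p = 0.0544), and its next 2 probe sets at 0.57 and 1.14. Eif4e2, a cap-binding repressor, stood at -0.02 ± 0.11.

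The inhibitors of eIF4E went separate ways. Eif4ebp2, which keeps eIF4E from its scaffold, was lower, at 633 to 1021 (median 837) against 245 to 747 (median 610), with a difference of -0.62 ± 0.18 (adjusted p = 0.0162). Other Eif4ebp2 probe sets gave -0.43 and 0.04. Eif4ebp1, of the same family, did not pass (-0.10 ± 0.18, adjusted p = 0.732). Eif4enif1, the eIF4E transporter, was higher, at 141 to 221 (median 179) against 208 to 305 (median 241), with a difference of 0.44 ± 0.11 (adjusted p = 0.00950).

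Of 6 genes grouped under start site selection and subunit joining, 1 was higher and 1 lower. Each is 16.7%, near the 14.8% and 11.9% of all genes. Eif1a, a scanning factor, stood at 0.36 ± 0.12 (adjusted p = 0.0409), a call that ended without any of 10 arrays. The second Eif1a probe set, with a mean signal of 520, stood at 0.66. Eif1ad, an eIF1A-domain protein, stood at -0.49 ± 0.13 (adjusted p = 0.0115), and its dimmer second probe set, with a mean signal of 71.9, at 0.23. Whether Eif1ad acts in start site selection was not examined. Eif5, which triggers GTP hydrolysis on eIF2, read 3249 to 5792 (median 4678) in unfractionated and 1466 to 7825 (median 6381) in polysome RNA, with the lowest value again on the polysome array with high 3' to 5' ratios. Its difference was 0.22 ± 0.24 with that array (adjusted p = 0.554) and 0.51 ± 0.12 without it (adjusted p = 0.00369). Of its 5 probe sets 4 were above 0 and 1, with a mean signal of 194, stood at -2.29. Eif5b, which joins the subunits, stood at -0.26 ± 0.13, Eif1b at 0.14 ± 0.19 and Eif1ax at 0.17 ± 0.12. The dimmer Eif1ax probe sets, with mean signals of 204 and 31.9, had log2 differences of 0.81 and 0.66.

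The other Eif genes act outside the main pathway. Eif2d, a factor of non-canonical initiation, was higher at 480 to 813 (median 639) against 699 to 1034 (median 880), with a difference of 0.47 ± 0.11 (adjusted p = 0.00510). Its next 2 probe sets stood at 0.32 and 0.26. Eif2a, another alternative initiator tRNA carrier, was lower at 240 to 454 (median 333) against 183 to 281 (median 226), with a difference of -0.50 ± 0.11 (adjusted p = 0.00293), and its second probe set stood at -0.36. Eif5a, which carries the amino acid hypusine and helps ribosomes past stalling sequences, stood at -0.24 ± 0.14 (adjusted p = 0.236). Eif6, which keeps the ribosomal subunits apart, stood at -0.03 ± 0.13.

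The same comparison can be read within each of the 4 conditions, with 2 against 2 arrays. Conditions are named by the titles of the samples. The z score columns of the authors' deposited table match by value arrays whose titles name the opposite treatment, so that by those column names the untreated and tBuHQ livers of each genotype change places in what follows, while the mean of 4 conditions stays as it is. Of the 21 lower members, 20 were below 0 in all 4 conditions. The exception was Eif3l, at -0.08 in untreated wild-type, 0.03 in tBuHQ wild-type, -1.01 in untreated knockout and -0.47 in tBuHQ knockout liver. All 6 higher members were above 0 in all 4. The calls rest on the mean of these same 4 differences, so such agreement in sign is largely built in and gives no further support. Sizes were uneven for some members. In the same order, with tBuHQ wild-type liver second, Eif4g3 stood at 0.09, 1.35, 0.14 and 0.13. Eif1ad stood at -0.01, -1.42, -0.35 and -0.20. Eef1b2 was the only member called in every condition, with differences of -1.51 ± 0.22 in untreated wild-type, -1.96 ± 0.22 in tBuHQ wild-type, -2.09 ± 0.22 in untreated knockout and -1.84 ± 0.22 in tBuHQ knockout liver (limma adjusted p = 0.00529, 0.000241, 0.000260 and 0.00130).

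In untreated wild-type liver, Eef1b2 was the single member called, against 0.592% of all genes, and leaving out either unfractionated array or the first polysome array of that group left 0. In wild-type liver with tBuHQ, 9 members were lower and 2 higher, against 4.85% and 10.8% of all genes. The lower ones included Eef1a1, Eef1d (-0.89 ± 0.29), Eif3f (-1.15 ± 0.24) and Eif1ad (-1.42 ± 0.26, adjusted p = 0.00289). The higher ones were Eif4g3 (1.35 ± 0.26, adjusted p = 0.00339) and Eif3a (0.71 ± 0.22, adjusted p = 0.0431). Without the first or the second unfractionated array of that group the count was 4 or 5. The Eif3a value turned to -0.13 when all its probe sets were averaged. Without the array with high 3' to 5' ratios, 3 of these calls ended: Eif5a went from -0.97 to -0.31 (adjusted p = 0.317), Eef1d to -0.67 (adjusted p = 0.191) and Eif4a2 from -0.71 to -0.66 (adjusted p = 0.105).

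In untreated knockout liver, 13 members were lower and none higher, against 3.53% and 5.82% of all genes and 9.35% in either direction. They included Eef1d (-1.48 ± 0.29), Eef2 (-0.82 ± 0.24), Eif3m (-1.09 ± 0.25), Eif3l (-1.01 ± 0.23), Eif2b3 (-0.96 ± 0.24), Eif3c (-0.96 ± 0.22) and Eif5b (-0.97 ± 0.26, adjusted p = 0.0312). Leaving out one array of that condition gave counts of 1 to 5. In knockout liver with tBuHQ, Eef1b2 and Eef1d (-1.43 ± 0.29, adjusted p = 0.0376) were the 2 members called, both lower, against 0.461% of all genes called lower and 0.658% in either direction, and Eef2 stood at -0.59. That count was 1 to 6 over single arrays left out. The share of all genes called also differed between the conditions, and the test of whether a difference between fractions changed with tBuHQ is given further on.

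Neighbouring parts of the translation machinery were read in the comparison over the mean of 4 conditions, in which 14.8% of all genes were called higher and 11.9% lower. Of the 16 tested TOP mRNAs outside the factors, all were lower in polysome RNA, with a median of -0.94. Examples were Rpsa (-1.84 ± 0.10) and Rplp0 (-1.63 ± 0.10), ribosomal proteins, Pabpc1 (-0.93 ± 0.10), the poly(A)-binding protein, and Tpt1 (-0.94 ± 0.09). Of 6 termination and recycling genes, Abce1, which splits ribosomes, was higher (0.36 ± 0.11, adjusted p = 0.0234) and the other 5 did not pass. Of 16 initiation co-factors, 3 were higher and 2 lower. The higher ones were Larp1, which binds TOP mRNAs (0.92 ± 0.20, adjusted p = 0.00351), Paip2 (0.70 ± 0.20) and the helicase Ddx3x (0.64 ± 0.11), and the lower ones Pdcd4, an eIF4A inhibitor (-0.46 ± 0.13), and Pabpc4 (-0.42 ± 0.12).

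Of 11 genes of mTOR signalling, 4 were higher and none lower: Deptor, an mTOR inhibitor (1.21 ± 0.17, adjusted p = 0.000163), Tsc2 (0.59 ± 0.13), Tsc1 (0.55 ± 0.18) and Rptor (0.40 ± 0.13). None of 8 genes that make diphthamide on eEF2 or hypusine on eIF5A passed, with a median of -0.04. Of 9 mitochondrial and selenocysteine factors, Tufm, the mitochondrial counterpart of eEF1A (-0.54 ± 0.18), and Gfm1, a mitochondrial translocation factor (-0.48 ± 0.10), were lower. The counts in these short lists stand beside 14.8% of all genes called higher and 11.9% called lower. These lists were chosen with earlier results of the data known and give no independent support.

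Some cell type markers also differed between the fractions, in a comparison that called 11.9% of all genes lower. Of hepatocyte markers 5 of 6 were lower in polysome RNA, with summed signals of 83132 to 112995 in unfractionated and 67306 to 82721 in polysome RNA. Of Kupffer and macrophage markers 5 of 5 tested were lower (1809 to 3234 against 744 to 1283), of stellate markers 2 of 4 and of endothelial markers 1 of 6. The endothelial one was Clec4g (-0.90 ± 0.14), while Eng stood the other way at 0.46 ± 0.18 without passing. None of the 5 pancreatic markers tested passed. Between the fractions, a lower marker is a smaller share of the polysome RNA and no measure of cell number. In bulk RNA, fewer cells of a type and less RNA per cell cannot be told apart. The part of these markers in the differences of the translation factors was not tested. Without the 4 arrays with pancreatic markers, 17 members were lower and 4 higher (20.2% of all genes called), and without the untreated wild-type condition and the first knockout tBuHQ array of each fraction, 15 were lower and 2 higher (18.7%). Without the array with high 3' to 5' ratios, 20 were lower and 6 higher (27.4%). With quantile normalization over all arrays 19 members were called and with the mean of all probe sets of a gene 17, and the calls of Eef2, Eif2s2, Eif3c, Eif3i, Eif3l and Eif4g3 were lost under both. The mean of probe sets also ended the calls of Eef1a2, Eif1ad, Eif2a, Eif2b2, Eif2d, Eif4e3 and Eif4ebp2.

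The next question was whether tBuHQ changed the level of these mRNAs. Its sign was taken from the titles of the samples. By the column names of the authors' deposited table of z scores, all 16 of which matched an array of the same genotype and fraction but the opposite treatment, each tBuHQ difference turns its sign. No member passed the test with tBuHQ in either genotype or fraction, and the plot of tBuHQ differences shows the values. In wild-type unfractionated RNA none of 49 was called, against 4.28% of all genes, and 6 had an unadjusted p under 0.05. The median was 0.21 for Eef and 0.23 for Eif genes, against -0.03 for all genes, and 37 of 49 members were above 0. With quantile normalization over all arrays, the median of all members was 0.15 in place of 0.23 and that of all genes 0.07. Eif4a2 had the smallest p: its signal was 3750 and 3914 without and 5426 and 6820 with tBuHQ, a difference of 0.66 ± 0.22 (adjusted p = 0.101). Eif4h came next and stood the other way, at 1587 and 1850 without and 1043 and 969 with tBuHQ (-0.76 ± 0.25, adjusted p = 0.101). Eef1a1 read 13781 and 14901 without and 19062 and 19313 with tBuHQ (0.42 ± 0.16, adjusted p = 0.143). The arrays without and with tBuHQ did not overlap for any of these 3 genes. Their p-values were among the smallest of the members in this same comparison, so such separation is largely built in and gives no further support. The share of all genes that separate between so few arrays is not given.

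In knockout unfractionated RNA, none of the members and 0.00% of all genes were called, no member had an unadjusted p under 0.05, and 39 of 49 were below 0. The medians were -0.19 for both Eef and Eif genes. Eif4e had the smallest p, at 1261 and 1045 without and 833 and 975 with tBuHQ (-0.34 ± 0.23, adjusted p = 0.735). The genotype difference of the tBuHQ effect in unfractionated RNA was tested directly. None of the members was called, against 5.30% of all genes, with 7 at an unadjusted p under 0.05. The medians were -0.38 for Eef and -0.44 for Eif genes, and 41 of 49 members were below 0. With the same normalization the median of all members was -0.33 in place of -0.42, and that of all genes -0.11 in place of 0.04. Eif4h had the smallest p (1.13 ± 0.36, adjusted p = 0.0765). Its signal was 1587 and 1850 without and 1043 and 969 with tBuHQ in wild-type liver, and 1041 and 1036 without and 1657 and 1101 with tBuHQ in knockout liver.

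The unfractionated arrays that stood apart were untreated in wild-type and tBuHQ-treated in knockout liver. As the plot of array levels shows, the members' median deviation from the fraction's mean was -0.11 and -0.26 on the untreated wild-type arrays and -0.11 on the first knockout tBuHQ array, and 0.0045 to 0.20 on the other 5 unfractionated arrays. The second knockout tBuHQ array was at 0.06, beside 0.20 and 0.13 on the untreated knockout arrays. Stellate markers moved the other way: in unfractionated wild-type RNA all 4 tested fell with tBuHQ, against 3.87% of all genes called lower. The sum of the 5 stellate markers on the array was 1186 to 1509 on the 3 arrays and 428 to 688 on the other 5. Sums of endothelial markers separated the same arrays, at 1819 to 2104 and 782 to 1191. The part of the cell types in the members' shifts was not tested, and no member was called in either comparison.

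**Figure D3:**
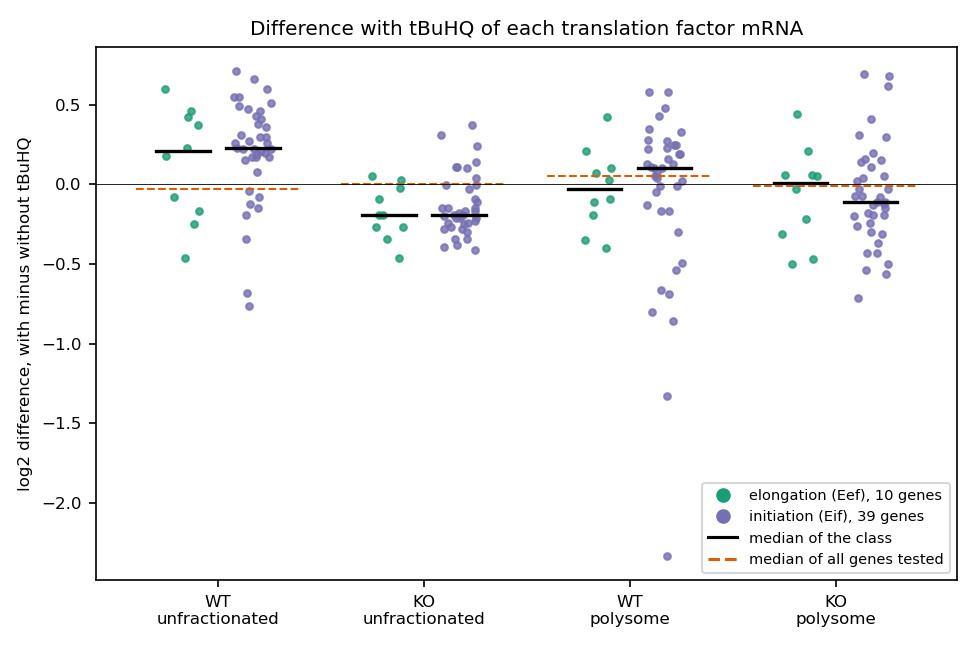
Log2 difference with minus without tBuHQ (y axis, 2 against 2 arrays) of each of the 10 Eef (green) and 39 Eif (violet) genes tested, by genotype (WT, wild-type; KO, knockout) and fraction, with class medians (black) and the median of all genes (dashed orange). In unfractionated RNA the class medians are 0.21 and 0.23 in wild-type and -0.19 in knockout liver.

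**Figure D4:**
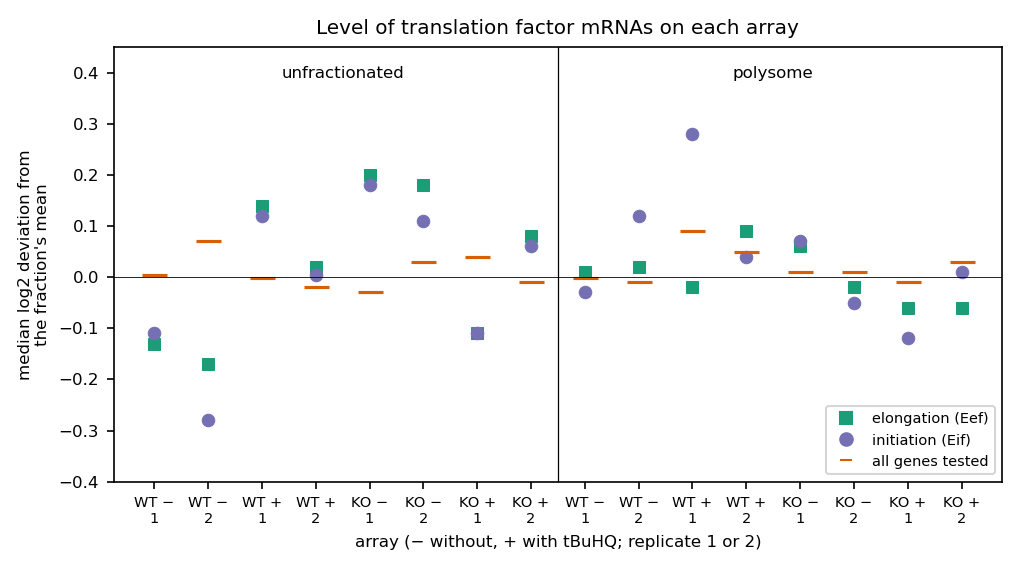
Median log2 deviation from the mean of the same fraction (y axis) of the Eef genes (squares), the Eif genes (circles) and all genes tested (dashes) on each of the 16 arrays (x axis; WT, wild-type; KO, knockout; minus, without and plus, with tBuHQ). In unfractionated RNA the members lie below 0 on both untreated wild-type arrays and on the first knockout tBuHQ array.

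In wild-type polysome RNA none of the members was called with tBuHQ, against 0.0165% of all genes, with 4 at an unadjusted p under 0.05. Eif1ad had the smallest p, at 326 and 318 without and 219 and 132 with tBuHQ (-0.86 ± 0.26, adjusted p = 0.352). Leaving out the first wild-type tBuHQ polysome array left the one with high 3' to 5' ratios alone in its group, and then Eif4a1 (-5.46), Eif3d (-2.60), Eif5 (-1.97), Eif5a (-1.33) and Eif1ad (-1.19) passed. Those genes except Eif1ad read 80.9, 146, 1466 and 2806 there and 7375, 929, 7572 and 7031 on the first array.

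In knockout polysome RNA none of the members and 0.00% of all genes were called, with 3 at an unadjusted p under 0.05. Eif3c had the smallest p (0.68 ± 0.22, adjusted p = 0.589). The genotype difference of the tBuHQ effect in polysome RNA called none of the members and 0.00% of all genes, with 1 member at an unadjusted p under 0.05, Eif3d (2.02 ± 0.74, adjusted p = 0.966).

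Whether tBuHQ changed the difference between polysome and unfractionated RNA was also tested. In wild-type liver none of the members was called, against 0.107% of all genes, with 6 at an unadjusted p under 0.05. Eif1ad had the smallest p: its fraction difference was -0.01 without and -1.42 with tBuHQ, a change of -1.41 ± 0.37 (adjusted p = 0.0917). Eif4g3 went from 0.09 to 1.35 (1.26 ± 0.37, adjusted p = 0.106). Without the polysome array with high 3' to 5' ratios, Eif4ebp2 (-1.57, adjusted p = 0.0395), Eif4ebp1 (-1.74, adjusted p = 0.0456) and Eef1akmt2 (-1.66, adjusted p = 0.0420) passed, with a single wild-type tBuHQ polysome array left and assumed to vary like the others. In knockout liver no member was called or had an unadjusted p under 0.05, against 0.00% of all genes called, and Eif3c had the smallest p (0.64 ± 0.32, adjusted p = 0.999).

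The last comparison was between the genotypes. Over the mean of 4 conditions none of the members differed between knockout and wild-type liver, against 0.156% of all genes called, with 4 at an unadjusted p under 0.05. The medians of all members and of all genes were 0.03 and -0.01. Eif1ad (0.51 ± 0.13, adjusted p = 0.175) and Eif5b (-0.50 ± 0.13, adjusted p = 0.186) had the smallest p-values. In untreated unfractionated RNA none was called, against 0.716% of all genes called higher and 6.29% lower, with 7 at an unadjusted p under 0.05, and the medians were 0.32 for Eef and 0.37 for Eif genes. With quantile normalization the median of all members was 0.22 in place of 0.33, and that of all genes 0.10 in place of -0.03. Eif4e2 read 628 and 566 in wild-type and 1077 and 948 in knockout liver (0.75 ± 0.22, adjusted p = 0.0573). That comparison rests on both wild-type arrays that stood apart. By the column names of the z score table it would be the one between tBuHQ-treated livers, as would the next.

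In untreated polysome RNA none of the members was called, against 0.00823% of all genes, with 5 at an unadjusted p under 0.05. Eif5b read 623 and 468 in wild-type and 186 and 306 in knockout liver (-1.12 ± 0.26, adjusted p = 0.345). Eif3c followed with -0.69 ± 0.22 (adjusted p = 0.529) and Eef2 with -0.62 ± 0.24 (adjusted p = 0.612). The genes of eIF2B, which acts downstream of PERK, did not pass in any comparison of genotype or tBuHQ.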

How the data were processed

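The deposited values were signal intensities of 45101 probe sets on 16 Affymetrix arrays, which the authors had scaled alike, as the values showed, with software not named in the labels. The authors' deposited table of z scores (18697 probe sets) served only to check the labels. Names came from the platform annotation, in which 34958 probe sets had 1 symbol, 932 more than 1 and 9211 no symbol; Entrez identifiers brought 34754 symbols up to date. The brightest probe set of a gene by mean signal was kept if that mean reached the 40th percentile (16.5), which left 12154 genes. Values were taken as log2(signal + 16).

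limma 3.58.1 in R 4.3.3 (lmFit, eBayes with an intensity trend) fitted 8 group means to 16 arrays (8 residual and 6.94 prior degrees of freedom) for 16 contrasts, adjusted by Benjamini and Hochberg over all genes of a contrast at 0.05, and was tested on simulated data. The p-values cover the spread among the arrays at hand, whose number limits the precision. Overlap between fractions was counted over 8 against 8 arrays. Named genes were all members called in a contrast, the member with the smallest p where none was called, a list of core factors, and called genes of the comparison lists. Members and lists were chosen with earlier results of these data known. Alternatives covered scaling, pseudocount, filter, choice of probe set, trend, the replicate number as a block and leaving out arrays, of which the settings without the pancreatic-marker arrays and without the arrays that stood apart were chosen after seeing the data. Sequences came from RefSeq (GRCm38.p6), in which 41 of 52 members were found by symbol.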

Additional observations from a re-analysis of the deposited data

How the results depend on the processing

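The count of 27 members called between the fractions (mean of 4 conditions) ran from 20 to 30 when each array was left out in turn, and 19 of the 27 calls held without any single array. Quantile normalization over all arrays (19 called) ended the calls of Eef2, Eif1a, Eif2s2, Eif3c, Eif3e, Eif3i, Eif3l, Eif4a2, Eif4enif1 and Eif4g3. The count fell to 17 with the mean of all probe sets of a gene, which ended the calls of Eef1a2, Eef2, Eif1ad, Eif2a, Eif2b2, Eif2d, Eif2s2, Eif3c, Eif3i, Eif3l, Eif4e3, Eif4ebp2 and Eif4g3, and to 17 without the untreated wild-type condition and the first knockout tBuHQ array of each fraction, which ended those of Eef2, Eif1a, Eif2b2, Eif2d, Eif2s2, Eif3c, Eif3i, Eif3l, Eif4e, Eif4e3 and Eif4enif1. Without the 4 arrays with pancreatic markers (21 called), those of Eef1a2, Eif1a, Eif2b2, Eif3c, Eif3i, Eif3k, Eif4e and Eif4ebp2 ended. The calls lost without a single array were those of Eef1a2, Eif1a, Eif2b2, Eif3c, Eif3i, Eif3l, Eif4e and Eif4g3; for Eif3c these were the first untreated wild-type unfractionated and the first untreated knockout polysome array. The elongation median of -0.25 was -0.03 with no filter on dim probe sets and -0.15 with the mean of all probe sets, and ran from -0.33 to -0.18 over single arrays left out. Within conditions, the count of 1 in untreated wild-type liver was 2 with quantile normalization within each fraction and 0 to 2 over arrays left out. In tBuHQ wild-type liver, 11 became 7 with no filter, 4 with the mean of probe sets, 7 without the trend and 4 to 13 over arrays left out (4 and 5 without the first or second unfractionated array). Eif3a there turned from 0.71 to -0.13 with the mean of probe sets. In untreated knockout liver, 13 became 5 with the mean of probe sets and 1 to 16 over arrays left out. In tBuHQ knockout liver, 2 became 1 with the mean of probe sets, 1 without the trend and 1 to 6 over arrays left out. The cause of these moves was not tested.

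Counts of 0 became 0 to 5 (tBuHQ, wild-type polysome), 0 to 4 (its genotype difference, polysome), 0 to 1 (its genotype difference, unfractionated: Eif4h, without the second knockout tBuHQ unfractionated array or either wild-type tBuHQ polysome array), 0 to 6 (tBuHQ change of the fraction difference, wild-type), 0 to 4 (genotype, mean) and 0 to 2 (genotype, untreated unfractionated) over arrays left out. Apart from that Eif4h case, the highest counts came without the first (for the last count, either) wild-type tBuHQ polysome array. The last count was 1 under each quantile normalization. The replicate numbers were not shown to pair the fractions: deviations of same-numbered arrays correlated at 0.0812, 0.106, 0.328 and 0.0821, not all over 0.1. The pancreatic marker sums did go together by number, in tBuHQ wild-type (2499 and 1865 on arrays 1, 222 and 125 on arrays 2) and untreated knockout liver (1752 and 2214, 149 and 144). With a replicate block the count of 27 was 26 (fixed term) or 29 (random term, consensus correlation 0.111), and the random block gave 2 in untreated wild-type and 4 in tBuHQ knockout liver. Of 54 called differences, 12 held in every setting, leaving aside those added after seeing the data. Arrays number 2 a group, and Eef1a2 and Eef1aknmt, at mean signals of 68.3 and 25.9, are dim beside the added 16.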
